A study of Homo sapiens with 12 samples.

Results

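The genes of the T-cell-attracting chemokines CXCL9, CXCL10, CXCL11 and CCL5 were followed in single-cell RNA-seq data of 3 established lines of head and neck squamous cell carcinoma (HNSCC). The 4 genes were taken by name from the count tables, which held 33514 gene symbols, and each of them was found and passed the low-count filter. The lines SCC1 (UM-SCC-1), SCC6 (UM-SCC-6) and SCC25 were given a daily dose of 100 nM cetuximab, a therapeutic antibody against the EGF receptor (EGFR), over 5 days, and their controls were given PBS. All were grown in the same serum-containing medium. Each of the 6 groups had 2 replicates, giving 12 samples with 961 to 2854 cells and 57057402 to 112170073 unique molecular identifiers (UMIs, counts of captured transcripts) each. The median number of UMIs per cell ran from 24078.5 to 54864 among samples. Levels are given as CPM, counts scaled to library size with TMM factors. Whether the 2 replicates were separate cultures is not clear from the descriptions, and all errors and p-values here measure the spread between these libraries only. Between 3 and 10 cell barcodes occurred in both replicates of a group, and 1 to 13 in any other pair of samples. Cetuximab replicate 1 of SCC1 and of SCC25 stood apart from replicate 2 for CXCL10 and CXCL11, and results are given with and without these libraries. The lines expressed epithelial markers, which summed to between 1882 and 15488 CPM per sample. T-cell and NK markers summed to at most 0.525 CPM, and CD3G was at 0 in SCC1 and in SCC25. The endothelial markers summed to at most 0.788 CPM. The myeloid and B-cell list summed to 5.11 to 211 CPM, of which CD68, which epithelial lines can also express, gave up to 205 CPM. The fibroblast list was higher with cetuximab, at 15.4 to 16.6 against 7.23 to 7.53 CPM in SCC1, 23.0 to 27.3 against 1.15 to 3.33 in SCC6 and 46.5 to 84.3 against 21.9 to 42.5 in SCC25, and its part in the results was not tested.

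CXCL9, CXCL10 and CXCL11 are ligands of CXCR3, a receptor on activated T cells and NK cells, and they are induced by interferons. CCL5 (RANTES) attracts T cells and monocytes and is a target of NF-kB and of interferon regulatory factors. In tumours these chemokines are known for drawing effector T cells into the tissue. Interferons act through JAK kinases, STAT proteins and IRF9, and sensors of foreign or misplaced nucleic acid start interferon production through IRF3 and IRF7.

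The CXCR3 ligands lie next to each other on chromosome 4 in GRCh38.p14, by the RefSeq annotation. CXCL9 spans chr4:76001275-76007509, CXCL10 chr4:76021118-76023497 and CXCL11 chr4:76033682-76036070, all on the minus strand, and the whole group covers 34796 bases. CCL5 lies apart at chr17:35871491-35880360. ART3 overlaps CXCL10 and CXCL11 at chr4:76011190-76112786. The 250 bases before the start of 3 of the genes, taken from RefSeq (GRCh38.p14, minus strand, 5′ to 3′), are printed because the promoter is where interferon and NF-kB signals meet on these genes. Capitals mark letters that match 1 of 4 motifs, searched on both strands. These were GAAANNGAA, a core of the interferon-stimulated response element, the NF-kB consensus, TTCNNNGAA (the GAS element bound by STAT dimers) and TGANTCA (AP-1).

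CXCL10 (chr4:76023498-76023747): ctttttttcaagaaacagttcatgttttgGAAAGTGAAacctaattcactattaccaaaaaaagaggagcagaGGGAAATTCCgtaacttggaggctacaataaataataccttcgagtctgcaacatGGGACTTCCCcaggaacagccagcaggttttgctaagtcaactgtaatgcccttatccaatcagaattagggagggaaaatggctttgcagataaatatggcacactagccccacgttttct

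CXCL11 (chr4:76036071-76036320): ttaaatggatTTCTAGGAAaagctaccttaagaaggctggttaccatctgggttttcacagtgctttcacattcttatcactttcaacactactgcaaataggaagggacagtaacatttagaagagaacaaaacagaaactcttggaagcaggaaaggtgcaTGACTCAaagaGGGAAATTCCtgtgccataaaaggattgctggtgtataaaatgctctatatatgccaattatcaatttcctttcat

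CXCL9 (chr4:76007510-76007759): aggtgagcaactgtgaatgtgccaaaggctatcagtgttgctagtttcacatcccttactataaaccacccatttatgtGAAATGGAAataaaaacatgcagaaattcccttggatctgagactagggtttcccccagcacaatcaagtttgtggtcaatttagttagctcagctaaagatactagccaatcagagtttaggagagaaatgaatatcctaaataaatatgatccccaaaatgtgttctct

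The CXCL10 window held 1 match to GAAANNGAA, 221 to 213 bases before the start, and 2 matches to the NF-kB consensus, at 177 to 168 and at 122 to 113 bases. CXCL11 held 1 NF-kB match at 76 to 67 bases, 1 TGANTCA at 87 to 81 and 1 TTCNNNGAA at 240 to 232, and CXCL9 held 1 GAAANNGAA at 171 to 163. No marked match overlapped another. Among 35116 promoter windows of this length, 6.88% held GAAANNGAA, 5.21% the NF-kB consensus, 6.57% TTCNNNGAA and 6.57% TGANTCA. A match describes the letters and not a bound site. CCL5 is named only.

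To ask how the lines differ before treatment, levels were compared under PBS. CXCL10, CXCL11 and CCL5 were expressed in SCC1 and SCC25 and were near 0 in SCC6. CXCL10 stood at 23.9 and 9.30 CPM in the 2 SCC1 samples and at 8.31 and 13.6 CPM in SCC25, whereas SCC6 held 2 UMIs in each of its 2 samples. CXCL11 stood at 5.20 and 1.14 CPM in SCC1 and at 15.9 and 11.6 CPM in SCC25, with 2 and 1 UMIs in SCC6. CCL5 stood at 20.3 and 9.09 CPM in SCC1, at 18.8 and 23.7 CPM in SCC25 and at 0.0597 and 0.152 CPM in SCC6. Every SCC1 and SCC25 sample was far above both SCC6 samples for these 3 genes.

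In the edgeR quasi-likelihood fit over all 17897 genes tested (FDR threshold 0.05), 3 of the 4 genes were higher in SCC1 than in SCC6 and 4 of 4 were higher in SCC25 than in SCC6. Between these lines 40.2% and 40.9% of all genes passed the same test, so a call alone is common and the size is the descriptive part. CXCL9, CXCL10 and CXCL11 held at most 6 UMIs in any SCC6 sample and passed the low-count filter through samples of the other lines. Their calls against SCC6 are therefore description only. The log2 difference from SCC6 was 7.08 ± 0.68 (SE; FDR 2.84e-05) for CCL5 in SCC1 and 7.61 ± 0.69 (FDR 2.35e-05) in SCC25. CXCL9, the scarcest of the 4, had 0 UMIs in all 4 SCC6 samples, 2 and 1 UMIs in SCC1 and 10 and 20 in SCC25. Its pooled level in SCC25 was at least 9.59-fold higher than in SCC6, against a floor of 3 UMIs over the SCC6 group.

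SCC1 and SCC25 did not separate from each other in this test, in which 0 of the 4 genes passed while 40.8% of all genes did. At an unadjusted p under 0.05 there were 2, beside 8805 of 17897 genes, and DESeq2 called 0, beside 7632 of 19371. The 2 were CXCL11 and CXCL9, both lower in SCC1, by log2 differences of -2.12 ± 0.95 (edgeR FDR 0.0995) and -3.05 ± 1.11 (edgeR FDR 0.0581). For CXCL10 (0.60 ± 0.91) and CCL5 (-0.53 ± 0.48) the differences were close to their errors. With a replicate block shared by the lines, CXCL11 (-2.63 ± 0.46, edgeR FDR 0.000799) and CXCL9 (-3.19 ± 0.96, edgeR FDR 0.0214) passed, as did 9790 of all 17897 genes. The calls between SCC1 and SCC25 for these 2 genes thus depended on the fit, and 2 of 4 was near the share of all genes. CXCL10, CXCL11 and CCL5 were above SCC6 in both lines, whereas CXCL9 in SCC1 did not pass against SCC6 (edgeR FDR 0.248).

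The low chemokine levels in SCC6 went along with low levels of genes of the interferon pathway. Under PBS, 18 of 18 type I interferon response genes passed as higher in SCC1 than in SCC6, and in SCC25 16 passed as higher and 2 as lower. Of all 17897 genes, 3336 passed as higher in SCC1 than in SCC6 and 3969 in SCC25. The 2 lower genes were MX1 and MX2, at no more than 0.0194 CPM in the SCC25 samples with PBS. IRF7, the factor that amplifies interferon production, had 0, 1, 0 and 1 UMIs in the 4 SCC6 samples, against 11167 to 19619 UMIs in SCC1 samples and 2508 to 10628 in SCC25 samples. DHX58, a sensor of the RIG-I family, averaged 0.0163 CPM in SCC6 under PBS, 10.6 CPM in SCC1 and 3.26 CPM in SCC25. The interferon receptors were present in SCC6, with 20.6 CPM of IFNAR1, 12.2 CPM of IFNAR2 and 70.6 CPM of IFNGR1 on average. With PBS, IFNAR1 stood at 125 and 114 CPM in SCC1 and at 18.9 and 17.0 in SCC25. IFNAR2 stood at 49.6 and 54.7 CPM in SCC1 and at 10.9 and 11.1 in SCC25. IFNGR1 stood at 35.1 and 55.3 CPM in SCC1 and at 26.7 and 69.1 in SCC25. IFNLR1 stood at 1.28 and 1.44 CPM in SCC6, at 2.75 and 3.13 in SCC1 and at 4.21 and 3.22 in SCC25. MX1, MX2, IRF7, DHX58 and these receptors were named after their values had been seen.

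**Figure D1:**
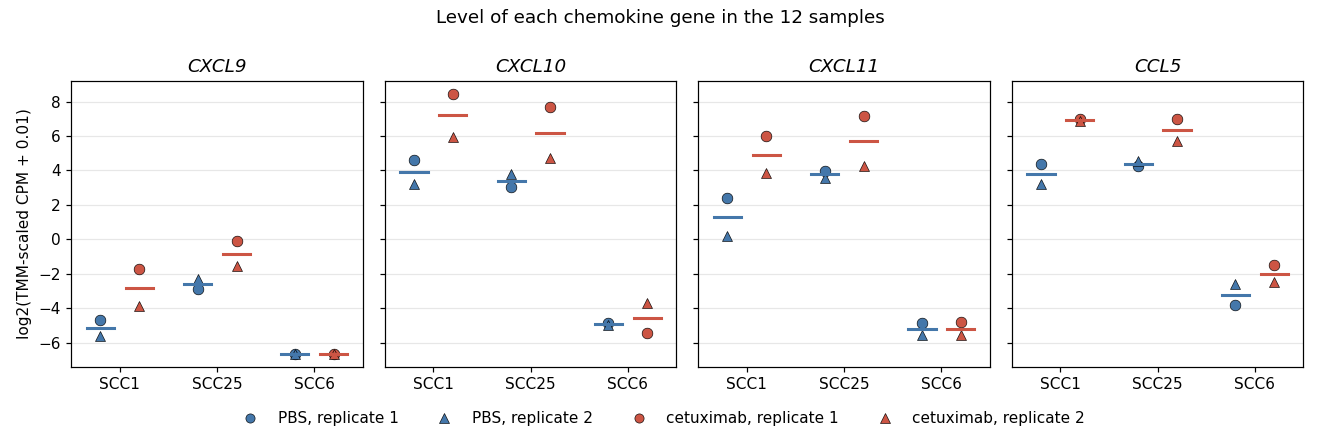
Level of each gene in the 12 samples on a log2 axis of CPM plus 0.01, with lines on the x axis, PBS in blue, cetuximab in red, the shape giving the replicate and bars the mean of the log2 values. SCC1 and SCC25 rise with cetuximab while the SCC6 points stay at the bottom, and for CXCL10 and CXCL11 the cetuximab replicates lie far apart.

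Cetuximab was then compared with PBS. In SCC1 and SCC25 each cetuximab sample stood above each PBS sample for all 4 genes. The share of all genes ordered this way was not counted, so with 2 samples per group the order is description only. CXCL10 reached 352 and 62.1 CPM in SCC1 with cetuximab, which was 14.7-fold and 6.68-fold the PBS sample of the same replicate number. In SCC25 it reached 205 and 25.9 CPM, or 24.6-fold and 1.90-fold. The group means were 207 ± 205 CPM against 16.6 ± 10.3 in SCC1 and 115 ± 126 against 10.97 ± 3.76 in SCC25 (SD, n = 2). Groups did not overlap, but replicate 1 of cetuximab was far above replicate 2 in both lines.

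For CXCL11 the cetuximab samples held 63.5 and 14.2 CPM in SCC1, 12.2-fold and 12.4-fold the matching PBS sample, and 140.3 and 19.0 CPM in SCC25, 8.85-fold and 1.63-fold. The SCC1 folds were thus alike in the 2 replicates although the levels were not. CCL5 behaved more evenly in SCC1, where it rose to 125 and 117 CPM, 6.14-fold and 12.9-fold. In SCC25 it stood at 128 and 53.2 CPM, 6.81-fold and 2.25-fold. CXCL9 stayed rare, with 19 and 5 UMIs in SCC1 and 79 and 33 in SCC25, the latter 7.35-fold and 1.68-fold by CPM. SCC6 stayed at the floor, with 1 and 6 UMIs of CXCL10, 2 and 1 of CXCL11 and 0 of CXCL9 under cetuximab. CCL5 in SCC6 had 27 and 15 UMIs with cetuximab and 5 and 14 with PBS, a log2 difference of 1.23 ± 0.71 (edgeR FDR 0.375).

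Tested within 1 line, none of the 4 genes passed the edgeR threshold. In SCC1 the log2 fold changes were 3.04 ± 0.51 for CCL5 (FDR 0.0969), 3.64 ± 1.00 for CXCL10 (FDR 0.276), 3.62 ± 1.00 for CXCL11 (FDR 0.280) and 3.11 ± 1.13 for CXCL9 (FDR 0.476). In SCC25 they were 2.09 ± 0.50 for CCL5 (FDR 0.466), 3.39 ± 0.99 for CXCL10 (FDR 0.593), 2.54 ± 0.95 for CXCL11 (FDR 0.765) and 1.93 ± 0.77 for CXCL9 (FDR 0.801). Very few genes passed at all, 0.0168% in SCC1 and 0% in SCC25, against 3.81% in SCC6. There 0 of the 4 passed, with at most 6 UMIs per sample of CXCL9, CXCL10 and CXCL11. At an unadjusted p under 0.05 in edgeR, the count of the 4 genes was 4 in SCC1, 4 in SCC25 and 0 in SCC6. Of all 17897 genes, 1570, 1041 and 3561 had such a p. DESeq2 called 1 of the 4 in SCC1 and 1 in SCC25, CCL5 in both, and 0 in SCC6. Of all genes it called 270 of 15856, 100 of 17865 and 1666 of 17363.

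With the replicate number of each line as a block, 3 of the 4 genes passed in SCC1, where 4.45% of all genes did. The blocked log2 fold changes were 3.15 ± 0.43 for CCL5 (edgeR FDR 0.0120), 3.62 ± 0.49 for CXCL11 (edgeR FDR 0.0120) and 3.31 ± 0.73 for CXCL10 (edgeR FDR 0.0439). In SCC25 with the block 0 passed (edgeR FDR 0.0833 to 0.204), with 0.978% of all genes, and 4 had an unadjusted p under 0.05, beside 2720 of 17897 genes. In SCC6 with the block 0 passed, with 20.1% of all genes. There 0 of the 4 had an unadjusted p under 0.05, beside 6446 of 17897 genes. CXCL9, CXCL10 and CXCL11 held 0 to 6 UMIs in each SCC6 sample, so a fall or a small rise could not be seen there. Without cetuximab replicate 1 of the line, and with the remaining sample assumed to vary like the others, the unblocked log2 fold change was 1.90 ± 0.91 for CXCL10, 2.16 ± 0.97 for CXCL11 and 2.99 ± 0.60 for CCL5 in SCC1. In SCC25 it was 1.26 ± 0.81 for CXCL10, 0.48 ± 0.84 for CXCL11 and 1.34 ± 0.48 for CCL5. CCL5 in SCC1 thus changed little without that library, whereas CXCL10 and CXCL11 lost more than 1 log2 unit in both lines. The calls within SCC1 depended on how the replicates were treated.

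Across the 3 lines together, CCL5, CXCL10 and CXCL11 rose, 3 of 4 against 3.67% of all genes. The log2 fold change was 2.34 ± 0.36 for CCL5 (edgeR FDR 0.00966), 3.39 ± 0.66 for CXCL10 (edgeR FDR 0.0190) and 2.97 ± 0.67 for CXCL11 (edgeR FDR 0.0338). CXCL9 had 2.25 ± 0.61 and did not pass (edgeR FDR 0.0776), but passed with the block (2.07 ± 0.51, edgeR FDR 0.0466), when 4 of 4 passed against 11.6% of all genes. These changes rest on SCC1 and SCC25, since SCC6 held few UMIs. Without cetuximab replicate 1 of SCC1, cetuximab replicate 1 of SCC25 or PBS replicate 2 of SCC1, the count of 3 fell to 1, which was CCL5. Leaving out any 1 sample gave log2 fold changes of 2.06 to 2.54 for CCL5, which passed each time, of 2.66 to 3.72 for CXCL10, which passed in 9 of 12 fits, and of 2.29 to 3.38 for CXCL11, which passed in 2 of 12.

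To compare the size of the change among lines, interaction terms were fitted. In edgeR 0 of the 4 genes passed, as did 0% of all genes, and 1.29% with the block, where again 0 of the 4 passed. None of the 4 had an unadjusted p under 0.05, beside 1318 of 17897 genes, and DESeq2 called 0, beside 278 of 15856. The change in SCC25 minus that in SCC1 was -0.25 ± 1.28 for CXCL10, -1.09 ± 1.28 for CXCL11 and -0.95 ± 0.68 for CCL5 on the log2 scale, none called by edgeR (FDR 1.00 for each). With 2 replicates these errors leave room for large differences in either direction. The interaction terms for SCC6 also rested on few UMIs of CXCL9, CXCL10 and CXCL11.

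The rise could be in the number of cells or in the amount per cell. Each cell was therefore thinned to 15000 UMIs, which left 23063 cells, and counted as positive with at least 1 UMI. For CXCL10, 3.79% and 1.52% of cells were positive in SCC1 with PBS and 44.9% (exact Clopper-Pearson 95% interval 41.7 to 48.1) and 8.02% (6.62 to 9.60) with cetuximab. In SCC25 the shares were 3.56% and 4.19% with PBS and 45.4% (43.2 to 47.7) and 6.22% (5.20 to 7.37) with cetuximab. Intervals cover counting error only. The gap between the 2 cetuximab replicates was thus far beyond counting error in both lines.

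CXCL11 was found in 2.30% and 0.671% of SCC1 cells with PBS and in 25.4% and 5.94% with cetuximab. Its widest spread was in SCC25, with 11.9% and 6.87% of cells under PBS and 62.5% and 12.3% under cetuximab, so that replicate 2 lay close to the higher PBS sample. CCL5 went from 5.68% and 2.93% to 19.6% and 14.7% in SCC1, and from 6.67% and 5.95% to 26.1% and 9.23% in SCC25. CXCL9 never exceeded 0.990% of cells. In SCC6 no share of the 4 genes exceeded 0.309%, and CXCL9 was in 0 of 1639 to 2652 cells, which allows shares of cells with a UMI at this depth of up to 0.113% to 0.183% (3 counts of the total). Genes that these cells should lack (PTPRC, CD3E, ALB and HBB) were seen in at most 0.183% of cells at the same depth, and the shares of CXCL10, CXCL11 and CCL5 in SCC1 and SCC25 all lay above this level. In SCC6 CXCL10 and CXCL11 stayed at or under 0.122%. CCL5 in SCC6 ran from 0.0411% to 0.309%, and the interval of its highest sample (0.133 to 0.607) included that background.

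Over the 3 lines the positive share rose by 15.3 percentage points for CXCL10, higher in 6 of 6 replicate pairs, and by 8.13 points for CCL5, also in 6 of 6. Both had p = 0.00926 by a two-sided exact permutation test within lines, the smallest that 216 arrangements allow (0.0185 after Benjamini-Hochberg adjustment over the 4 genes). Reaching this minimum needed the same order in SCC6, where positive cells were few. There CXCL10 was in 1 and 2 cells with cetuximab and in 1 cell of PBS replicate 1. CCL5 was in 8 and 4 SCC6 cells with cetuximab and in 4 and 1 with PBS. Without thinning, CXCL10 was higher in 5 of 6 pairs (exact permutation p = 0.0278, adjusted 0.0370). CXCL11 rose by 14.1 points, higher in 5 of 6 pairs (exact permutation p = 0.0278, adjusted 0.0370). CXCL9 differed by 0.300 points (exact permutation p = 0.0556). Exact sign-flips over the 6 replicate pairs, the blocked form of this permutation test, gave adjusted values of 0.0625 for CXCL10 and for CCL5 and 0.0833 for CXCL11, where the smallest possible p is 0.0312. None of the 4 passed when 2 UMIs or more were required (adjusted permutation p = 0.0741 for CXCL10, CXCL11 and CCL5).

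**Figure D2:**
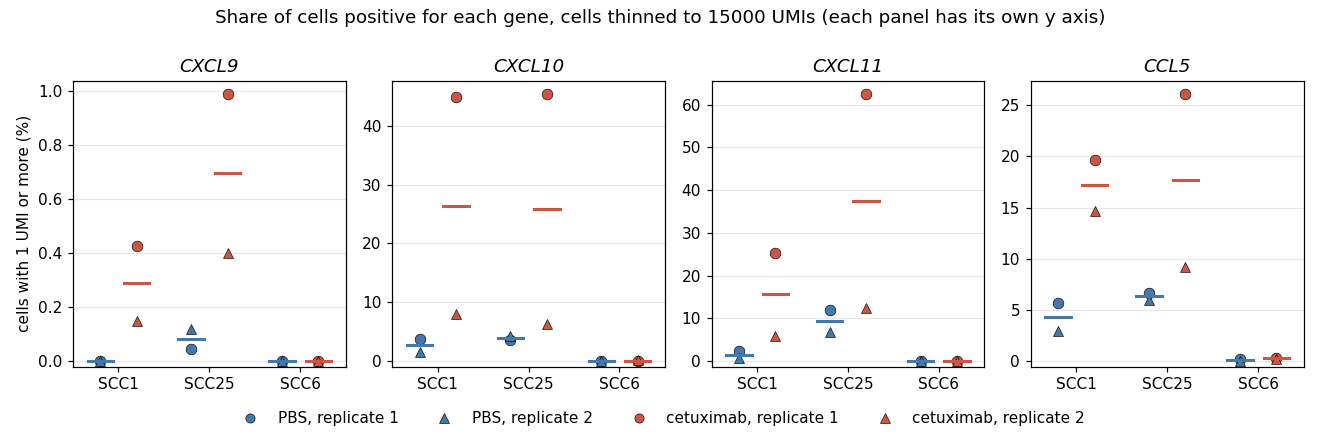
Percentage of cells with at least 1 UMI of each gene after thinning to 15000 UMIs, by line, treatment and replicate, with bars at group means. Each panel has its own y axis. Shares of CXCL10 reach 44.9% and 45.4% in cetuximab replicate 1 of SCC1 and SCC25 and 8.02% and 6.22% in replicate 2.

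By group means, the amount per positive cell changed less than the share of positive cells. In replicate 2 of SCC25 the amount rose by the larger factor for CXCL10 and CCL5. There the CXCL10 share went from 4.19% with PBS to 6.22% with cetuximab, and the mean amount from 4.12 to 7.04 UMIs. The CCL5 share went from 5.95% to 9.23% and its amount from 5.63 to 9.14 UMIs. For CXCL10 in SCC1 the mean share of positive cells was 9.96-fold higher with cetuximab. Its positive cells held on average 8.31 UMIs with PBS and 11.96 with cetuximab. The PBS value came from 6.59 and 10.04 UMIs in replicates 1 and 2. In PBS replicate 2 a single cell held 175 of the 251 CXCL10 UMIs of 25 positive cells, so the change in amount in SCC1 depends on that cell. In SCC25 the share was 6.65-fold higher, with 3.54 and 7.01 UMIs per positive cell. CCL5 had a share 3.99-fold higher in SCC1, with 5.73 and 11.4 UMIs per positive cell, and 2.80-fold higher in SCC25, with 4.98 and 8.68. Between the 2 cetuximab replicates the mean amounts of CXCL10 were close while the shares differed. CXCL10-positive cells of SCC1 with cetuximab held a mean of 12.5 and 11.4 UMIs in replicates 1 and 2, and those of SCC25 held 6.97 and 7.04, but their median was 2 UMIs in replicate 1 and 1 in replicate 2 of both lines. CXCL11-positive cells of SCC25 held a mean of 3.36 and 2.37 UMIs. These numbers describe groups of 2 samples and were not tested.

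Many positive cells had a single UMI, so that the averages came from a minority. With cetuximab, 38.5% and 53.7% of CXCL10-positive cells of SCC1 and 38.3% and 54.8% of those of SCC25 held 1 UMI. The UMIs of CXCL10 were concentrated in few cells in every SCC1 and SCC25 sample. In SCC1 with PBS, the 1% of cells with most CXCL10 UMIs held 87.1% and 96.4% of them, and 50% lay in 3 of 1215 cells and in 1 of 1640 cells. With cetuximab the same 1% held 34.9% and 69.0%, and 50% lay in 20 of 938 and 8 of 1347 cells. In SCC25 the 1% held 69.3% and 78.1% with PBS and 23.8% and 77.0% with cetuximab, with 50% in 10, 6, 71 and 7 cells. Concentration was thus lowest in the 2 libraries with most CXCL10. A single SCC1 cell with cetuximab held 2159 CXCL10 UMIs before thinning, and the highest cell among the SCC1 PBS samples held 635.

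CCL5 was concentrated in a like way. Of its thinned UMIs, 50% lay in 3 and 5 cells of SCC1 with PBS, in 12 and 10 cells with cetuximab, in 14 and 16 cells of SCC25 with PBS and in 43 and 14 cells with cetuximab. Before thinning, 1 SCC1 cell with cetuximab held 1187 CCL5 UMIs. CXCL11 in SCC25 was spread most widely, with 50% of its UMIs in 51 and 33 cells with PBS and in 195 and 36 with cetuximab. By the ratio of variance to mean over cells, CXCL10 ranked between 1 and 75 and CCL5 between 5 and 27 among the genes of each SCC1 or SCC25 sample with at least 100 thinned UMIs. CXCL11 ranked lower, between 61 and 215, in the samples where it reached that number.

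**Figure D3:**
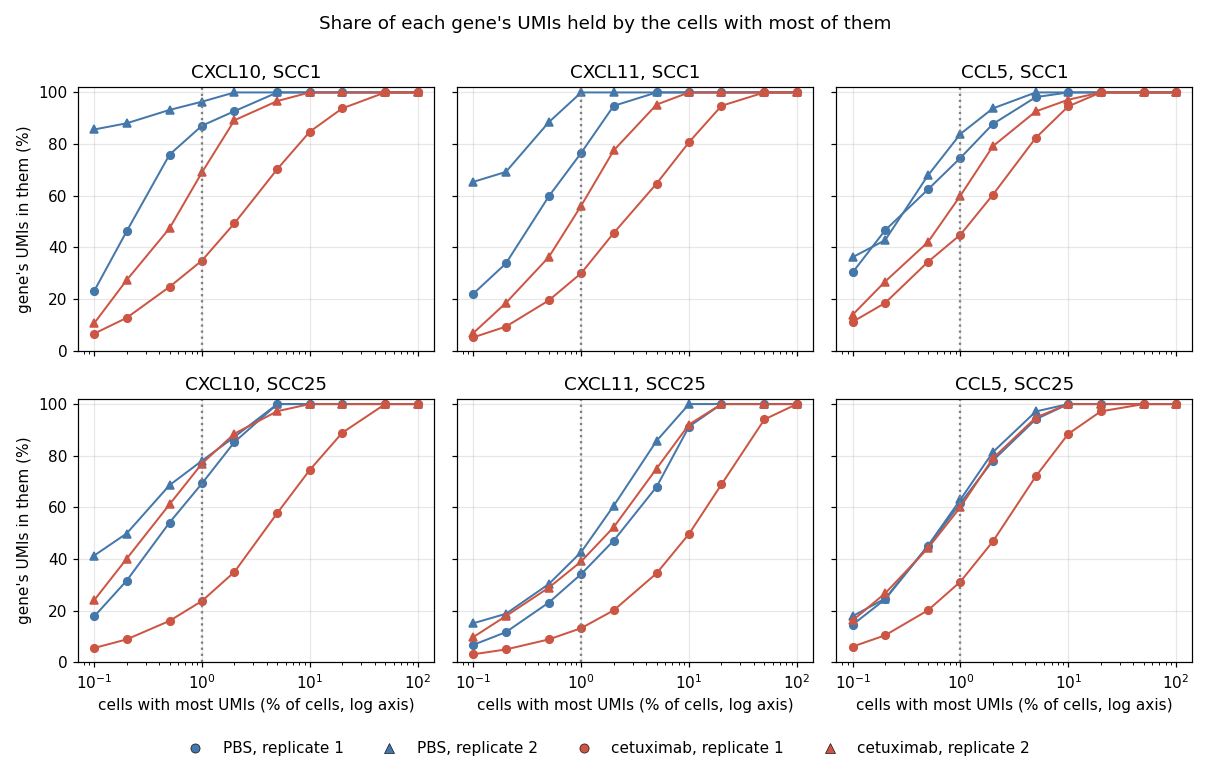
Share of the UMIs of CXCL10, CXCL11 and CCL5 (y axis, %) held by the cells with most of them (x axis, % of cells, log axis), for each SCC1 and SCC25 sample, with a dotted line at 1% of cells. At 1% the CXCL10 curves of SCC1 stand at 87.1% and 96.4% with PBS and at 34.9% and 69.0% with cetuximab.

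The genes were found in the same cells more often than the product of their shares would give. In SCC1 with cetuximab, CXCL10 and CXCL11 were both present in 179 cells of replicate 1 where the product gave 107, and in 42 cells of replicate 2 where it gave 6.41. In SCC25 with cetuximab the numbers were 652 against 545 and 59 against 15.2. CXCL10 and CCL5 shared 120 against 82.6 and 33 against 15.9 cells in SCC1, and 296 against 228 and 35 against 11.5 in SCC25. Of the CXCL10-positive cells, 42.5% and 38.9% also held CXCL11 in SCC1 with cetuximab and 28.5% and 30.6% held CCL5. These cells share a library and a fixed depth, and no test was made over cells.

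CXCL10 and CXCL11 went together more closely than either did with CCL5. Across the cells of a sample, Pearson r of CXCL10 with CXCL11 was 0.707 and 0.799 in SCC1 with cetuximab and 0.599 and 0.573 in SCC25 (938 to 1993 cells), and that of CXCL10 with CCL5 was 0.386 and 0.403 and 0.299 and 0.332. Among the 9 cells of SCC1 cetuximab replicate 1 with most CXCL10, 7 were also among the 9 with most CXCL11 and 4 among the 9 with most CCL5. In replicate 2 the counts were 11 and 5 of 13. In SCC25 they were 13 and 5 of 19 and 12 and 4 of 20. All 3 genes were present in 8.74% and 1.56% of SCC1 cells and in 13.1% and 1.305% of SCC25 cells with cetuximab, and in at most 0.719% of cells with PBS. At the same time 11.3% of cells in SCC1 cetuximab replicate 2 held CCL5 alone, more than the 4.01% that held CXCL10 alone, whereas in replicate 1 the values were 5.33% and 21.7%.

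**Figure D4:**
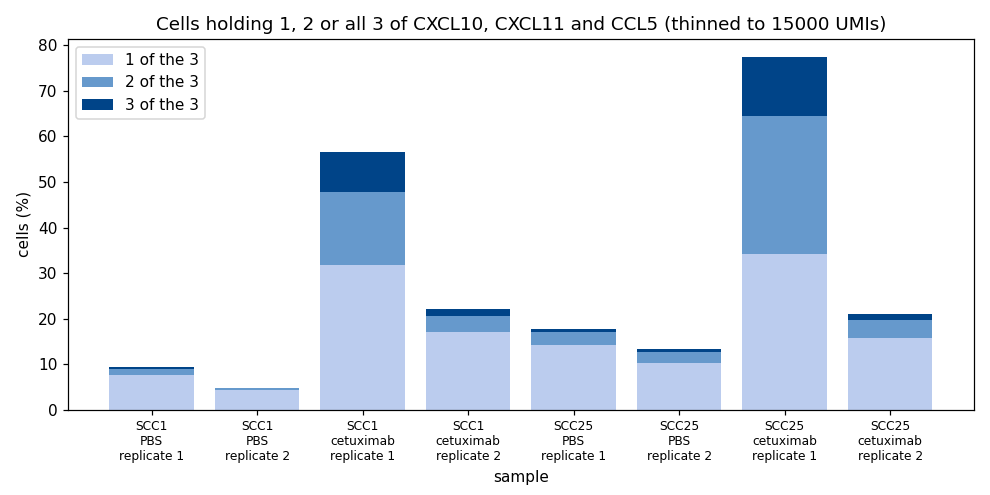
Percentage of cells (y axis, starting at 0) in which 1, 2 or all 3 of CXCL10, CXCL11 and CCL5 were present after thinning, for each SCC1 and SCC25 sample. Cells with all 3 make up 8.74% and 13.1% in cetuximab replicate 1 of SCC1 and SCC25, and at most 0.719% in the PBS samples.

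CXCL10-positive cells were compared with CXCL10-negative cells of the same sample, in the 8 samples of SCC1 and SCC25. Only listed genes were compared, so no share of all genes stands beside the counts. Type I interferon response genes were higher in positive cells. Of the 18 listed, 16 could be measured in all 8 samples and 16 were higher in all 8. OASL, an antiviral 2′-5′-oligoadenylate synthetase-like protein, had the highest median log2 ratio of the list, 2.83, with a range of 0.95 to 3.27. RSAD2 (viperin), an antiviral enzyme, had a median of 2.505 and a range of 0.83 to 4.46. The lowest value of both was in cetuximab replicate 1 of SCC1, in which OASL was at 237 CPM in positive and 123 CPM in negative cells.

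Interferon gamma response genes behaved likewise, 7 of 7 measured in all 8 samples being higher in each. GBP4, a guanylate-binding protein, had a median log2 ratio of 2.26 (1.33 to 3.27), and TAP1, the peptide transporter of antigen presentation, 0.83 (0.49 to 1.22). IDO1, the tryptophan-degrading enzyme, could be measured in 4 samples and was higher in positive cells in 4 of 4, with a median of 3.75. Among NF-kB genes 2 of 3 were higher in all 8 samples, NFKBIA with a median of 0.46 and TNFAIP2 with 0.55. None of 8 epithelial markers and 0 of 10 proliferation genes were higher in every sample, with medians over the genes of 0.08 and -0.02. On other lists, CXCL16, IFNGR1 and IFNGR2 were also higher in all 8 samples, whereas JAK1 was in 6 of 8 and IRF3 in 5 of 8. Depth was similar in both kinds of cell. In SCC1 cetuximab replicate 1, CXCL10-positive cells had a median of 55605 UMIs and 2.52% mitochondrial UMIs and negative cells 55085 UMIs and 2.46%. In SCC25 cetuximab replicate 1 the medians were 40530 and 43599.5 UMIs. Free RNA from the highest cells could also give single UMIs in other cells, and its part in the shares was not tested.

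**Figure D5:**
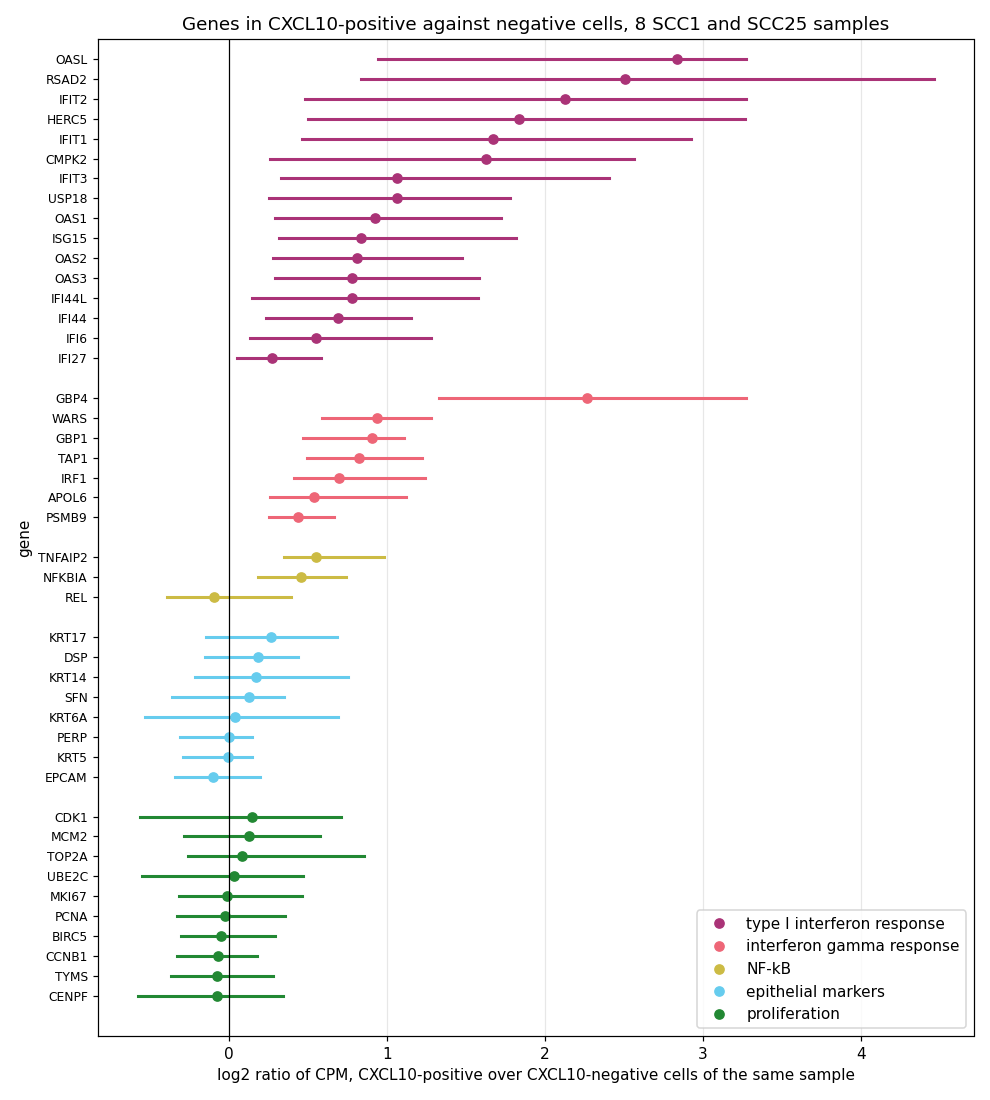
Log2 ratio of CPM between CXCL10-positive and CXCL10-negative cells of the same sample (x axis) for list genes measured in all 8 SCC1 and SCC25 samples. Points are medians over samples and lines run from the lowest to the highest sample. Each interferon response line lies above 0 along its whole length, and proliferation lines cross 0.

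Among ligands that could induce these chemokines, interferon transcripts were rare and lay in few cells. IFNG, the ligand for interferon gamma, had 0 UMIs in all samples. Cells with a UMI of IFNB1, IFNL1, IFNL2 or IFNL3 made up 2.60% and 1.304% of SCC1 cells and 0.700% and 1.83% of SCC25 cells with cetuximab, and 0.475% to 0.871% with PBS. These cells held 6.24% to 34.5% of the CXCL10 UMIs of their sample and 3.84% to 34.2% of the CCL5 UMIs. In cetuximab replicate 2 of SCC25, the 1.83% of cells held 19.6% of CXCL10 and 34.2% of CCL5. Few of them carried these shares, since their median was 0 CXCL10 UMIs in that sample, as in SCC1 cetuximab replicate 2, SCC1 PBS replicate 2 and SCC25 PBS replicate 2. It was 30.5 UMIs in cetuximab replicate 1 of SCC25, against 1 in the other cells. In SCC6 there were 1 to 3 such cells per sample. This comparison was chosen with the values already known.

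The counts of the pathway lists that follow stand beside 3.67% of all genes called across lines, or 11.6% with the block. Across lines, 3757 of 17897 genes had an unadjusted p under 0.05 in edgeR, and DESeq2 called 1759 of 17865. Of the 9 interferon and TNF ligands, 6 were tested, and 1 rose across lines in the edgeR fit and 2 with the block. IFNL3, a type III interferon with 147 UMIs in all samples, rose by 3.75 ± 0.87 on the log2 scale (edgeR FDR 0.0497). Its UMIs lay mostly in SCC25, with 50 and 75 under cetuximab and 3 and 7 under PBS. SCC1 held 12, all in cetuximab replicate 1, and SCC6 held 0. IFNL1, with most of its UMIs also in SCC25, had 1.45 ± 0.37 with the block (edgeR FDR 0.0438). Of 12 interferon receptor and JAK-STAT genes 1 passed across lines and 2 with the block, and of 14 sensor genes likewise 1 and 2, so that these counts were near the share of all genes with the block. STAT2 rose by 0.92 ± 0.18 on the log2 scale (edgeR FDR 0.0205) and IRF9 0.45 ± 0.12 with the block (edgeR FDR 0.0408). The median over the list was 0.18, beside 0.0060 over all genes. The sensors were ZBP1, which binds Z-form nucleic acid and rose by 2.78 ± 0.51 (edgeR FDR 0.0166), and with the block DHX58 at 0.97 ± 0.22 (edgeR FDR 0.0285). With the block 4 sensors rose in SCC1, among them IFIH1 (MDA5), an RNA sensor, by 1.61 ± 0.25 (edgeR FDR 0.0161), beside 4.45% of all genes. Of the 12 fits that left out 1 sample, the ligand count was 1 without cetuximab replicate 2 of SCC1 and 0 in each of the others. The receptor and JAK-STAT count was 0 without cetuximab replicate 1 of SCC1, cetuximab replicate 1 of SCC6 or PBS replicate 2 of SCC6.

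Type I interferon response genes rose across lines in 5 of 18 cases and in 11 of 18 with the block, with 0 falling and a list median of 1.15. The count ran from 2 to 9 when 1 sample was left out. It was 2 without PBS replicate 2 of SCC1, 9 without PBS replicate 2 of SCC6, and 3 without cetuximab replicate 1 of SCC1, cetuximab replicate 2 or PBS replicate 1 of SCC6, or PBS replicate 1 of SCC25. IFI6 rose by 2.07 ± 0.38 (edgeR FDR 0.0163), RSAD2 by 1.91 ± 0.43 (edgeR FDR 0.0335) and IFI44L by 1.57 ± 0.30 (edgeR FDR 0.0179). Within SCC1, 0 of 18 passed in edgeR (12 at an unadjusted p under 0.05, 3 in DESeq2) and 11 with the block. Within SCC25, 0 passed in edgeR (12 at an unadjusted p under 0.05, 3 in DESeq2) and 4 with the block. For all genes in SCC1, an unadjusted p under 0.05 was had by 1570 of 17897, and 270 of 15856 passed in DESeq2 and 797 of 17897 with the block. In SCC25 the all-gene counts were 1041 of 17897, 100 of 17865 and 175 of 17897. In SCC6 the edgeR test called IFI27, which rose by 1.91 ± 0.43 (FDR 0.0381), and with the block 3 rose and OASL fell by 1.35 on the log2 scale (SE 0.23, FDR 0.0065). Of 15 interferon gamma response genes 1 rose across lines, GBP1, by 1.31 ± 0.22 (edgeR FDR 0.0126), and with the block 2, with SOCS1 at 0.65 ± 0.16 (edgeR FDR 0.0383), near the share of all genes. In SCC1 with the block 4 rose, among them GBP4 by 1.94 ± 0.37 (edgeR FDR 0.0289), and in SCC25 1 rose. In SCC6, where 20.1% of all genes passed with the block, 1 rose and 3 fell, among them IRF1, which decreased by 1.13 (SE 0.17, edgeR FDR 0.00433).

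Of the NF-kB subunits and targets, 0 of 12 passed across lines in the edgeR fit with or without the block, 0 had an unadjusted p under 0.05 and DESeq2 called 0, with a list median of 0.04. In SCC6 with the block 2 fell, a share below that of all genes (20.1%), BIRC3 by 3.03 (SE 0.71, edgeR FDR 0.0216) and BCL3 by 0.97 (SE 0.23, edgeR FDR 0.0227). Of 6 neutrophil chemokines tested, 0 passed across lines in edgeR, 0 had an unadjusted p under 0.05 and DESeq2 called 0, and in SCC6 CXCL2 and CXCL3 fell by 2.93 (SE 0.52, FDR 0.0179) and 3.29 (SE 0.74, FDR 0.0399) in the edgeR fit. Of 10 other lymphocyte chemokines tested, 0 passed across lines in edgeR (3 at an unadjusted p under 0.05, 0 in DESeq2), and 1 did with the block. This was CCL2, the monocyte chemokine, which averaged 6.34 CPM in SCC25 with cetuximab from 12.5 and 0.198 CPM in its 2 samples, and 0.0222 CPM with PBS. In SCC6 with the block CCL22 and CCL27 fell by 3.71 and 2.32 on the log2 scale and CCL28 rose by 0.71 (edgeR FDR 0.0341, 0.0354 and 0.0376). CXCL16, the ligand of CXCR6 and the most abundant of this list, averaged 85.2 CPM in SCC1 with cetuximab and 46.2 with PBS, and 63.9 and 33.5 in SCC25, without passing, and was named after its values had been seen.

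CXCR3, the receptor of CXCL9, CXCL10 and CXCL11, was nearly absent from the cancer cells, with 1 UMI in all 12 samples. Of the 7 receptors listed 3 were tested and all 3 rose across lines, but the count was 0 without PBS replicate 2 of SCC1, 1 without cetuximab replicate 2 or either PBS sample of SCC6, and 2 without any other SCC1 sample. CCR1 had 59 UMIs in all and rose by 2.64 ± 0.54 (edgeR FDR 0.0337). Its change rested on SCC1, with 0.352 and 0.308 CPM with cetuximab and 0.0559 and 0.0419 CPM with PBS, since it was at 0 in all SCC25 samples and in 3 of the 4 SCC6 samples. ACKR3, an atypical receptor that binds CXCL11 and CXCL12, averaged 67.1 CPM in SCC25 with PBS and 121 with cetuximab, and rose across lines by 1.97 ± 0.38 on the log2 scale (edgeR FDR 0.0196). It rose in SCC6 by 3.06 ± 0.41 (edgeR FDR 0.0073), from 0.487 to 4.08 CPM, and with the block also in SCC1 by 2.62 ± 0.34 (edgeR FDR 0.0102) and in SCC25 by 0.90 ± 0.13 (edgeR FDR 0.0281). ACKR2, a scavenger of CC chemokines, rose across lines by 1.37 ± 0.25 (edgeR FDR 0.0161). DPP4, the peptidase that trims the CXCR3 ligands, was low, with 0.976 CPM in SCC25 with cetuximab and 1.96 with PBS, and 0 of the 4 processing and inhibitor genes passed across lines in edgeR (1 at an unadjusted p under 0.05, 0 in DESeq2). Proliferation genes stood lower with cetuximab in all 3 lines, 0 of 10 passing across lines in edgeR (7 at an unadjusted p under 0.05, 4 in DESeq2) and 7 falling with the block, among them MKI67, which decreased by 0.75 (SE 0.18, edgeR FDR 0.0347).

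Genes whose levels followed those of the chemokines over the 12 samples were sought among 11012 genes, by Pearson r of log2(CPM + 1). The samples fall by line, so these values describe the ordering of lines as much as treatment. For CXCL10 the 5 closest were LAMP3 (0.985), TNFSF13B (0.981), TAPBP (0.978), IL6 (0.978) and C19orf66 (0.977). For CXCL11 they were PDZD2 (0.980), SOCS1 (0.976), ISG20 (0.975), GBP4 (0.962) and ERAP1 (0.961). CCL5 had USP30-AS1 (0.984), WNT7A (0.978), LAMP3 (0.978), TRIM21 (0.976) and TRIM22 (0.976). CXCL9 had TNFRSF9 (0.973), STOML1 (0.957), GBP5 (0.938), UBD (0.933) and CSF1 (0.929). It was at 0.915 CPM in cetuximab replicate 1 of SCC25, at most 0.326 CPM in every other sample and at 0 in SCC6. The part of that 1 library in the r values of CXCL9 was not tested. LAMP3 was in the list of both CXCL10 and CCL5, and no gene was in both lists of CXCL10 and CXCL11.

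Protein-coding neighbours within 150000 bases were described after the data had been seen. NUP54, SDAD1 and NAAA near the CXCL genes had log2 fold changes of -0.48, -0.14 and 0.38 in SCC1 and of -0.04, -0.03 and -0.10 in SCC25, none called by edgeR. SCARB2, also near the CXCL genes, had 0.62 in SCC1 and 0.19 in SCC25 and was not called (edgeR FDR 0.345 and 1). ART3, which overlaps CXCL10 and CXCL11, averaged 0.298 CPM in SCC1 with cetuximab and 0.0891 with PBS, and 0.295 and 0.0811 in SCC25, and its reads cannot be told apart from theirs where the counting did not use strand. Near CCL5, TAF15 had log2 fold changes of -0.29 in SCC1 and -0.18 in SCC25. MMP28 near CCL5 fell in SCC6 by 2.30 on the log2 scale (edgeR FDR 0.0405), whereas its log2 fold change in SCC1 was 1.22, which passed with the block (edgeR FDR 0.0372) and not without it (edgeR FDR 0.538).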

How the data were processed

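Raw counts of UMIs per gene and cell, whole numbers, were deposited as 1 table per line, made by the authors with Cell Ranger (version not given in the sources used here). Per the submitters' processing notes the build was GRCh38. The 33538 table rows held 33514 symbols, and counts of repeated symbols were added. Strand and shared reads in counting were not given. All 23914 cells entered, no doublet caller was run, and 0 columns were left unused. Groups and replicate numbers came from the labels.

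UMIs were summed per sample and tested with edgeR 4.0.16 (R 4.3.3, quasi-likelihood, TMM, filterByExpr, 6 group means, 6 residual degrees of freedom), two-sided with Benjamini-Hochberg adjustment (FDR) over 17897 genes. The fit was tested on simulated data. SE is the log2 fold change divided by the square root of F. Same-numbered samples deviated together (r = 0.660 in SCC1, 0.568 in SCC6 and 0.702 in SCC25 over 12865 genes), so a fit with the replicate number as block within line is given where it changes a call of the 4 genes, and for the lists by counts and examples. Cells were thinned to 15000 UMIs for shares, leaving out 851 cells. DESeq2 1.42.0, other filters, depths and omitted samples were alternatives.

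The 4 genes and the lists were chosen with earlier results of these data known. Named genes were the 4 members, the 5 genes most like each (among genes with a mean of 5 CPM or more in a group), and from each list up to 3 called genes with the largest change per contrast, or else the most abundant gene. Depth left precision limited by the spread between libraries for all but rare transcripts such as CXCL9.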

Additional observations from a re-analysis of the deposited data

How the results depend on the processing

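Directions of all 4 changes across lines and of the line differences from SCC6 held under each alternative. The count of the 4 genes called in SCC1 moved from 0 to 1 with DESeq2, 3 without the low-count filter, 3 with the replicate block within line and 2 with the replicate block shared by the lines; in SCC25 it moved from 0 to 1 with DESeq2 and to 3 without the filter. Under PBS between SCC1 and SCC25 it moved from 0 to 2 without the filter, 2 with the shared replicate block and 1 without the 5% of cells with most UMIs. The cause was not tested. The replicate block changed no other call of the 4 genes beside those given above. Leaving out 1 sample gave counts of 1 to 3 across lines, 0 to 2 between SCC1 and SCC25 (2 without either cetuximab sample of SCC25, 1 without either of SCC1), 3 to 4 for SCC25 against SCC6, 3 for SCC1 against SCC6 and 0 within each line and for the interaction. It gave positive-share differences of 8.73 to 21.8 points for CXCL10, 5.71 to 22.4 for CXCL11, 5.32 to 10.9 for CCL5 and 0.202 to 0.398 for CXCL9. The adjusted permutation p rose above 0.05 for CXCL10 and CXCL11 when either PBS sample of SCC1 or SCC25 was left out, for CCL5 when either PBS sample of SCC25 was, and for CXCL11 also without cetuximab replicate 1 of SCC6 (0.0556) or of SCC25 (0.0833). Requiring 2 UMIs gave differences of 9.54 points for CXCL10, 8.75 for CXCL11 and 4.99 for CCL5, none passing. The sign-flip form left the differences at 15.3, 14.1 and 8.13 points, and thinning to 25000 gave 16.3 for CXCL11 (adjusted permutation p = 0.0556). In 10 cells instead of 1%, the share of UMIs was 58.4% for CXCL10, 24.1% for CXCL11 and 41.0% for CCL5 in SCC25 with PBS and 72.6% for CCL5 in SCC1 with PBS, and without thinning that of CCL5 in SCC25 with PBS was 60.2%. Signs turned only for differences that were not called. CXCL10 between SCC1 and SCC25 ran from -0.23 without PBS replicate 1 of SCC1 to 1.12 without PBS replicate 2. The change in SCC25 minus that in SCC1, added after seeing the data, turned without cetuximab replicate 1 of SCC1 to 0.36 for CXCL9, 1.49 for CXCL10 and 0.37 for CXCL11, and for CXCL10 to 0.58 without cetuximab replicate 2 of SCC25, 0.28 without PBS replicate 2 of SCC1 and 0.15 without PBS replicate 2 of SCC25. The lowest values, without cetuximab replicate 1 of SCC25, were -2.09 for CXCL9, -2.39 for CXCL10 and -3.14 for CXCL11. Depth allowed no fold for CXCL9, CXCL10 or CXCL11 in SCC6.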
